A study of Rattus norvegicus with 6 samples.

Results

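The 10 genes described here encode enzymes of bile acid synthesis and conjugation in rat liver. They were chosen by symbol as Cyp7a1, Cyp8b1, Cyp27a1, Cyp7b1, Hsd3b7, Akr1d1, Akr1c14, Amacr, Slc27a5 and Baat, and each had 1 row among the 25926 features of the deposited table. Liver RNA was sequenced from 3 control rats that received 0.9% saline and from 3 rats kept on total parenteral nutrition (TPN, nutrients infused into a vein in place of food) for 7 days. All 6 were Sprague-Dawley rats of 4 weeks. The control livers carried the disease state normal and the TPN livers PNALD, the liver disease associated with parenteral nutrition. How the TPN mixture was composed, whether the controls ate and at what hour the livers were taken are not stated in the labels. Values are in FPKM, fragments per kilobase of transcript and scaled to the mapped total of the library, so levels of different genes can be set side by side per length.

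The liver disposes of cholesterol by turning it into bile acids. In the classic pathway CYP7A1 hydroxylates cholesterol in the rate-limiting step, HSD3B7, AKR1D1 and the hepatic hydroxysteroid dehydrogenase AKR1C14 rework the steroid nucleus, and CYP8B1 adds the hydroxyl group that makes cholic acid. The alternative pathway starts with the mitochondrial enzyme CYP27A1 and goes on through CYP7B1. The side chain is shortened in peroxisomes with the help of the racemase AMACR. SLC27A5 couples bile acids to coenzyme A, and BAAT joins the activated bile acids to taurine or glycine. Bile acids that return from the gut repress Cyp7a1 and Cyp8b1 through the receptor FXR, and Cyp7a1 is also known for a strong daily rhythm.

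Some properties of the libraries touch every result below. Hepatocyte markers were abundant in all 6 livers, with 54751 to 84258 summed FPKM over 9 rows. TPN 1 stood apart by its acute-phase genes, which held 21.1% of its total FPKM, against 7.79% and 9.72% in the other TPN rats and 4.16% to 11.2% in the controls. The low end of the control range was shared by control 1 and control 3, and control 2 was the high one. Pearson correlations of log2(FPKM + 1) across features were 0.961 to 0.981 among controls, 0.942 to 0.968 among TPN rats, and 0.920 to 0.961 for a control with a TPN rat. Because these are whole-tissue samples, fewer hepatocytes and less RNA per hepatocyte cannot be told apart. For the members lowest in TPN 1, the log2 fold change is also given without that rat. The ratios and the sums of the enzymes and of the hepatocyte markers are given rat by rat.

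None of the 10 enzymes passed limma's test over all features at a Benjamini-Hochberg adjusted p under 0.05. Akr1c14 and Amacr, an enzyme of the steroid nucleus and the side-chain racemase, were the members whose 3 TPN values all lay below all 3 control values, at 1.88-fold and 1.43-fold lower mean FPKM. Cyp8b1 differed most between rats, with a 66.7-fold range within the TPN group. Cyp27a1, Akr1d1, Slc27a5 and Baat were low mainly in TPN 1, and Cyp7a1 was low in TPN 2 and high in TPN 3.

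In the test, 28 of 11362 features, which is 0.246%, passed, and 0 of the 10 members did. At an unadjusted p under 0.05, without correction for the number of features, limma gave 2 of 10 members, both lower, where 11.4% of all features reached that level, 7.01% lower and 4.44% higher. Members lower in TPN without overlap numbered 2 of 10, against 9.09% of all features, and members higher without overlap 0 of 10, against 8.02% of all features. Of the 10 log2 fold changes 9 were negative, against 49.1% of all features, and their median was -0.54 where that of all features was 0.0065. Cyp7a1 was among the 9 on the log2 scale only, since its mean FPKM was 38.8 in control and 40.0 in TPN. Without control 2, and also without TPN 2, the count of negative values was 8. The median of the members was -0.11 without TPN 1 and -0.93 without TPN 3. With 3 rats a group, an exact permutation test of 1 gene cannot give a p under 0.10.

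**Figure D1:**
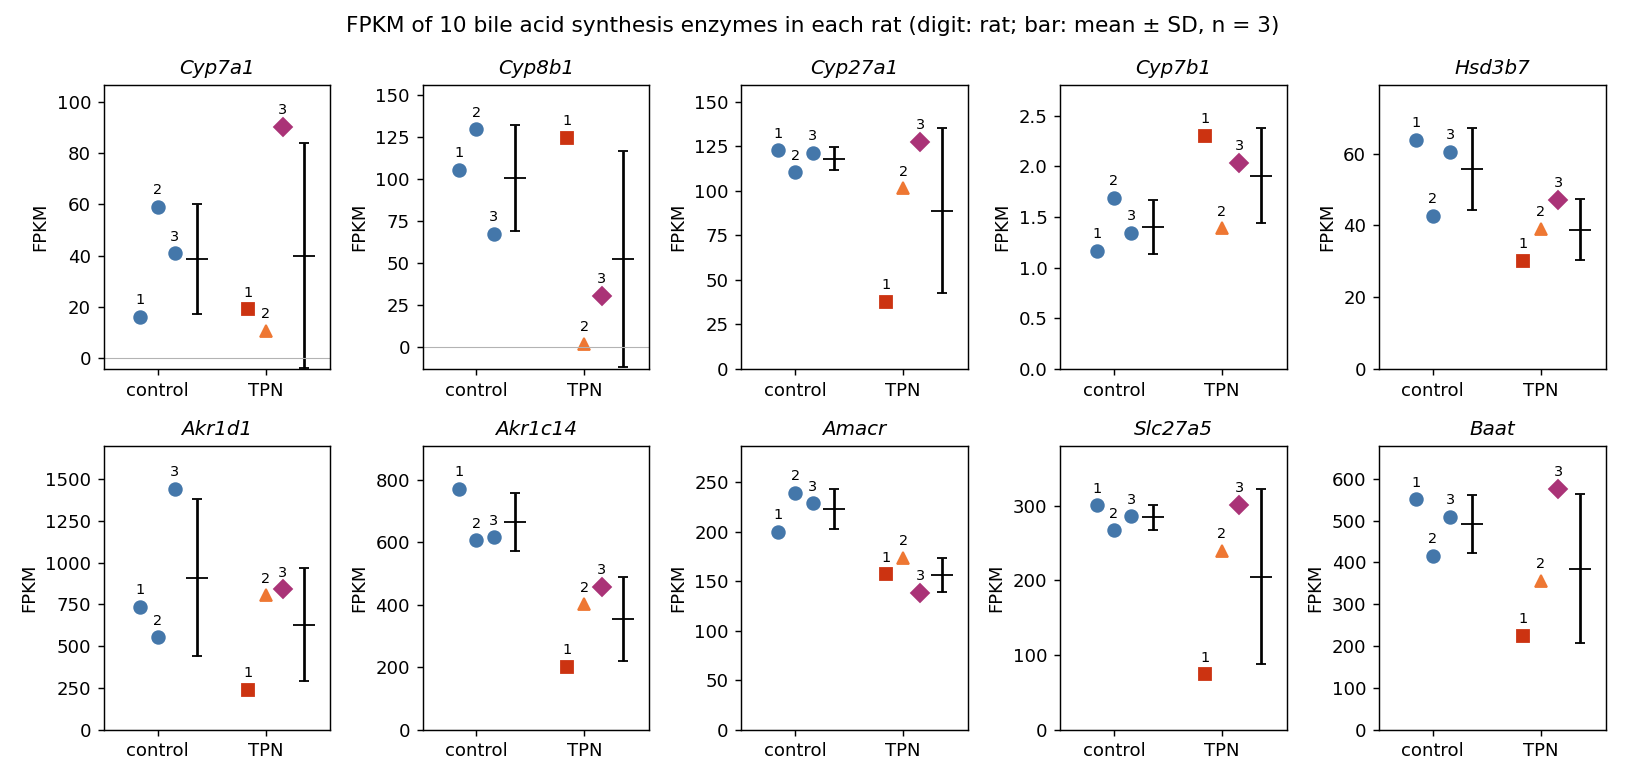
FPKM of each of the 10 enzymes (vertical axes, linear, each with its own scale) in 3 control rats (circles) and 3 TPN rats (square, triangle and diamond), each point marked with the number of the rat and each bar showing the mean ± SD of a group. Akr1c14 and Amacr are the panels in which all TPN points lie below all control points, and TPN 1 is the lowest point of 6 in the panels of Cyp27a1, Hsd3b7, Akr1d1, Akr1c14, Slc27a5 and Baat.

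The 10 enzymes covered a wide span of abundance. By mean over the 6 rats, Akr1d1 was feature number 70 of 25926 from the top, Akr1c14 number 107 and Baat number 131, while Cyp7a1 was number 1329 and Cyp7b1 number 10134. In the control group the order of mean FPKM was Akr1d1, Akr1c14, Baat, Slc27a5, Amacr, Cyp27a1, Cyp8b1, Hsd3b7, Cyp7a1 and Cyp7b1. The ranges of neighbours in that order overlapped for Akr1d1 and Akr1c14, for Cyp27a1 and Cyp8b1, and for Hsd3b7 and Cyp7a1, so those pairs cannot be ordered beyond their spread. In the TPN group the ranges of 7 of the 9 neighbouring pairs overlapped. The exceptions were Amacr above Cyp27a1 and Hsd3b7 above Cyp7b1.

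Cyp7a1 (ENSRNOG00000009488), the rate-limiting enzyme of the classic pathway, measured 16.3, 59.1 and 40.9 FPKM in control 1, 2 and 3 and 19.2, 10.7 and 90.3 FPKM in TPN 1, 2 and 3. TPN 2 was the lowest and TPN 3 the highest of the 6 rats, so the TPN values enclosed all control values. The highest control exceeded the lowest 3.61-fold, and the highest TPN rat exceeded the lowest 8.47-fold. Its log2 fold change in limma was -0.34 (SE 0.83 and limma adjusted p = 0.924), with a 95% confidence interval from -2.36 to 1.68. It turned to 0.044 without control 2 and to 0.29 without TPN 2, and measured -1.20 without TPN 3.

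Cyp8b1 (ENSRNOG00000019481), which sets the share of cholic acid, measured 105, 129.9 and 67.4 FPKM in control 1, 2 and 3 and 125, 1.87 and 30.6 FPKM in TPN 1, 2 and 3. TPN 2 and TPN 3 lay below every control, at 1.85% and 30.3% of the control mean, while TPN 1 stood at 124% of it. The coefficient of variation was 123% in the TPN group and 31.2% in the control group. By limma the log2 difference was -2.13 (SE 1.32 and limma adjusted p = 0.604), with a 95% confidence interval from -5.35 to 1.09. Without TPN 1 it was -3.37 (limma adjusted p = 0.339), and without TPN 2 it was -0.64. Over its 16 alternatives the adjusted p ran from 0.150 to 0.999. Among the 10 members no other had so low a value relative to its controls in any rat.

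The sequence before and after the start of Cyp8b1 is shown because this gene varied most between rats. It comes from RefSeq on build GRCr8, a later build than the Rnor_6.0 named for the FPKM, at chr8:130457543-130457842 on the minus strand, and runs from 250 bases before the start to 50 after it. Capitals mark the match to CAAGGNCA. With T at N this pattern is an extended form of the half-site AGGTCA that nuclear receptors such as NR5A2 are known to bind. Here N is G, so the marked stretch holds no AGGTCA.
Cyp8b1: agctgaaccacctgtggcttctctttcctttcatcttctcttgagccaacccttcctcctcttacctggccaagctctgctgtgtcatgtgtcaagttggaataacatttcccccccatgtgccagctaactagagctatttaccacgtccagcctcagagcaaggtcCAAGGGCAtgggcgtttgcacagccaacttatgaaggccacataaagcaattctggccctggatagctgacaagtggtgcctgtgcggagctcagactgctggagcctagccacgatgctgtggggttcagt
These 3 motifs were searched on both strands, CAAGGNCA, AGGTCA and TTANNTAA, and matches may overlap. CAAGGNCA was in 6.55% of 33469 promoters of this length, and in Cyp8b1 and Cyp27a1 among the 7 members with an entry. AGGTCA was in 16.2% of promoters, and in Cyp27a1 and Amacr. The D-box core TTANNTAA, known from clock-controlled genes, was in 5.84% of promoters, and in Slc27a5. A match is a description of letters and not a measured binding site. Cyp7a1, Cyp7b1 and Akr1d1 had no entry.

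Cyp27a1 (ENSRNOG00000017188), the mitochondrial sterol hydroxylase that opens the alternative pathway, was nearly constant among the controls, at 123, 110.4 and 121 FPKM in control 1, 2 and 3. The TPN rats, in the same order, measured 37.5, 101 and 127 FPKM. TPN 1 stood at 31.8% of the control mean, TPN 2 just below the lowest control and TPN 3 above the highest. On the log2 scale the fitted change was -0.58 (SE 0.42 and limma adjusted p = 0.659), and -0.053 without TPN 1. The coefficient of variation was 5.66% in controls and 52.1% in TPN rats.

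Cyp7b1 (ENSRNOG00000009730), the oxysterol hydroxylase of the alternative pathway, was the least abundant member and the sole member with a positive log2 fold change. It measured 1.16, 1.69 and 1.34 FPKM in control 1, 2 and 3 and 2.30, 1.39 and 2.03 FPKM in TPN 1, 2 and 3. TPN 1 and TPN 3 exceeded every control, and TPN 2 lay within the control range. Its log2 fold change in limma was 0.27 (SE 0.18 and limma adjusted p = 0.613). At values this close to the pseudocount of 1 FPKM the log2 scale understates a change, and with a pseudocount of 0.1 it was 0.41.

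Hsd3b7 (ENSRNOG00000019080), the dehydrogenase that acts on the steroid nucleus in both pathways, measured 64.0, 42.8 and 60.5 FPKM in control 1, 2 and 3 and 30.2, 39.1 and 47.2 FPKM in TPN 1, 2 and 3. The groups overlapped only where TPN 3 exceeded control 2, and TPN was the lower rat in 8 of the 9 pairs of a TPN and a control rat. By limma the log2 difference was -0.51 (SE 0.24 and limma adjusted p = 0.467, 95% confidence interval from -1.06 to 0.032). TPN 1 was the lowest rat, and without it the difference was -0.35. After median-ratio scaling or quantile normalisation the groups no longer overlapped.

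Akr1d1 (ENSRNOG00000013004), the steroid reductase that reduces the nucleus, measured 737, 552 and 1440.0 FPKM in control 1, 2 and 3 and 237, 804 and 840.4 FPKM in TPN 1, 2 and 3. TPN 1 was below every control, while TPN 2 and TPN 3 lay between the controls. On the log2 scale the fitted change was -0.62 (SE 0.57 and limma adjusted p = 0.740), and -0.026 without TPN 1. The control group itself spanned 2.61-fold, with control 3 the highest rat.

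Akr1c14 (ENSRNOG00000017672), the hydroxysteroid dehydrogenase that acts after AKR1D1, measured 771, 607 and 616 FPKM in control 1, 2 and 3 and 202, 402 and 458 FPKM in TPN 1, 2 and 3. The highest TPN rat lay below the lowest control. The group means were 665 ± 92.3 FPKM in control and 354 ± 135 FPKM in TPN (SD, n = 3). Its log2 fold change in limma was -0.98 (SE 0.33, 95% confidence interval from -1.75 to -0.22). It did not pass over all features, with a limma adjusted p of 0.337. Without TPN 1, the lowest rat, it was -0.62 (limma adjusted p = 0.285). Over its 16 alternatives the adjusted p ran from 0.0869, with sample weights, to 0.927. AKR1C genes form a family of similar sequence, and how reads shared between them were counted is not stated in the labels, so the split among them is uncertain.

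Amacr (ENSRNOG00000018662), the racemase that prepares the side chain for peroxisomal shortening, measured 200.1, 239.6 and 229 FPKM in control 1, 2 and 3 and 157, 173 and 139 FPKM in TPN 1, 2 and 3. The groups did not overlap, and here TPN 3 rather than TPN 1 was the lowest rat. The group means were 223 ± 20.4 FPKM in control and 156 ± 17.4 FPKM in TPN (SD, n = 3), at 9.17% and 11.2% coefficient of variation. By limma the log2 difference was -0.51 (SE 0.19, 95% confidence interval from -0.96 to -0.066), with a limma adjusted p of 0.378. It was -0.52 without TPN 1, -0.59 without TPN 2 and -0.43 without TPN 3. After quantile normalisation it was -0.41 and the groups overlapped.

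The starts of Akr1c14 and Amacr are shown because these members were lower in TPN without overlap. Both are RefSeq sequences on GRCr8, Akr1c14 at chr17:71083135-71083434 on the minus strand and Amacr at chr2:61673085-61673384 on the plus strand, and capitals mark the AGGTCA half-site.
Akr1c14: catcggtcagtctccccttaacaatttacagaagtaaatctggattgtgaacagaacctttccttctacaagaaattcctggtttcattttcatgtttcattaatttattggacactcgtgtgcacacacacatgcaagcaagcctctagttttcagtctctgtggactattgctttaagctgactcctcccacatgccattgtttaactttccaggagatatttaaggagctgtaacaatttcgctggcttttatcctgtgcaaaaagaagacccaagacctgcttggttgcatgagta
Amacr: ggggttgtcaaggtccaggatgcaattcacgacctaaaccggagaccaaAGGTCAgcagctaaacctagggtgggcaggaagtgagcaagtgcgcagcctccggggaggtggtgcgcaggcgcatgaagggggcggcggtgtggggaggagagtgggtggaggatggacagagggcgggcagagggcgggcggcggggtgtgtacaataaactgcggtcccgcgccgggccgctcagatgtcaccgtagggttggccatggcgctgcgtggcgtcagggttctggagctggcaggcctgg
The stretch of Akr1c14 held 40.7% G and C and no match to the motifs searched, and that of Amacr held 66.0% G and C and 1 match. The median over all promoters was 51.7% G and C.

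Slc27a5 (ENSRNOG00000019626), the bile acid coenzyme A ligase, measured 300.1, 267 and 286 FPKM in control 1, 2 and 3 and 74.0, 239.6 and 300.8 FPKM in TPN 1, 2 and 3. TPN 1 stood at 26.1% of the control mean, TPN 2 at 84.3% and TPN 3 at 106%. On the log2 scale the fitted change was -0.69 (SE 0.49 and limma adjusted p = 0.641), and -0.080 without TPN 1. After median-ratio scaling all 3 TPN rats lay below the controls.

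Baat (ENSRNOG00000007395), which joins the activated bile acid to taurine or glycine, measured 551, 416 and 509.6 FPKM in control 1, 2 and 3 and 224, 356 and 576 FPKM in TPN 1, 2 and 3. TPN 1 and TPN 2 lay below every control and TPN 3 above every control. Its log2 fold change in limma was -0.45 (SE 0.35 and limma adjusted p = 0.676), and -0.11 without TPN 1.

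Read rat by rat, the 3 TPN livers gave different profiles over the same enzymes. In TPN 1, 7 of 10 members lay below the lowest control, where 41.8% of all features did, and they were Cyp27a1, Hsd3b7, Akr1d1, Akr1c14, Amacr, Slc27a5 and Baat. In TPN 2, 8 of 10 lay below the lowest control, where 33.2% of all features did. These were Cyp7a1, Cyp8b1, Cyp27a1, Hsd3b7, Akr1c14, Amacr, Slc27a5 and Baat, most of them by a small step and Cyp8b1 by a large one. Above the highest control was 1 member in TPN 1, Cyp7b1, where 23.8% of all features were, and 0 members in TPN 2, where 24.5% were. In TPN 3, 3 of 10 lay below, where 20.4% of all features did, namely Cyp8b1, Akr1c14 and Amacr. Above the highest control in TPN 3 were 5 members, where 46.7% of all features were. They were Cyp7a1, Cyp27a1, Cyp7b1, Slc27a5 and Baat.

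**Figure D2:**
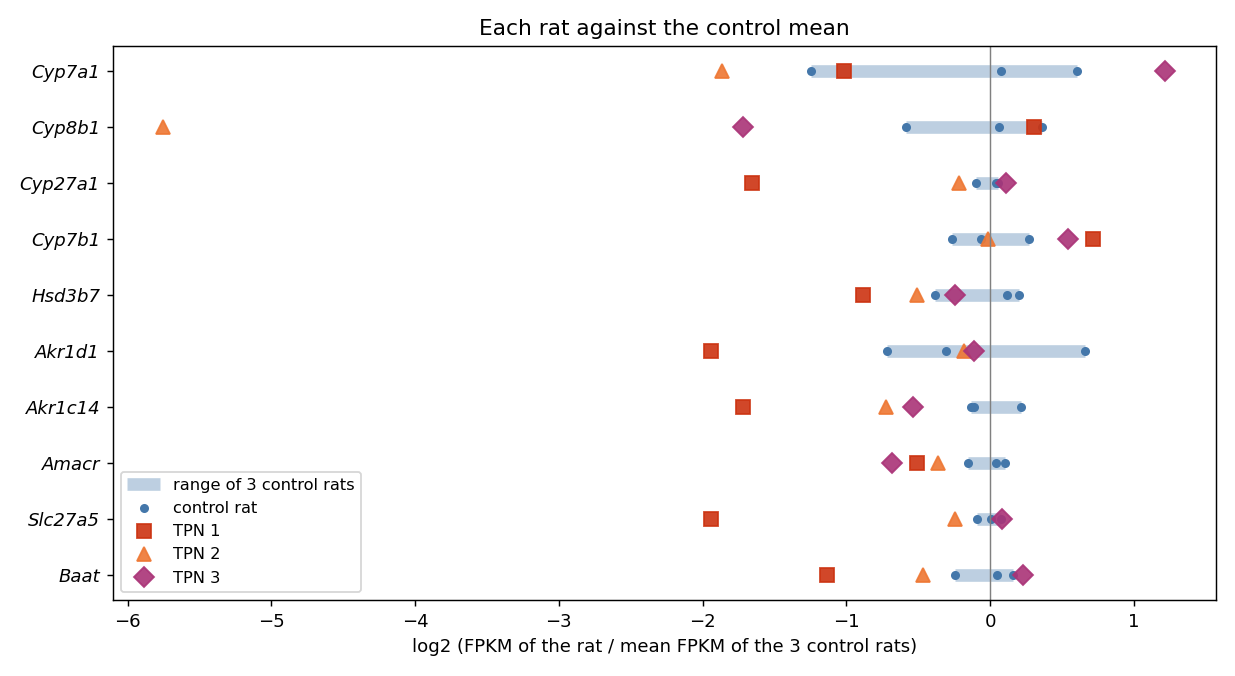
Each row is an enzyme, and the horizontal axis gives log2 of a rat's FPKM over the mean of the 3 control rats, with dots and a band for the controls and a square, triangle and diamond for TPN 1, 2 and 3. TPN 2 lies at -5.75 for Cyp8b1, TPN 1 between -1.94 and -1.13 for Cyp27a1, Akr1d1, Akr1c14, Slc27a5 and Baat, and all 3 TPN rats lie left of the control band for Akr1c14 and Amacr.

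Leaving out a TPN rat moved the members in different ways. Without TPN 1 the members lower without overlap were Cyp8b1, Akr1c14 and Amacr, in a comparison where 12.8% of all features were lower without overlap. Without TPN 2 they were Akr1c14 and Amacr, against 12.7% of all features, and Cyp7b1 was higher without overlap, against 14.6% of all features. Cyp7b1 was also higher without overlap without control 2, against 13.8% of all features. Without TPN 3 the lower members were 6, namely Cyp27a1, Hsd3b7, Akr1c14, Amacr, Slc27a5 and Baat, against 19.8% of all features. No member passed the adjusted threshold in any of these fits.

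**Figure D3:**
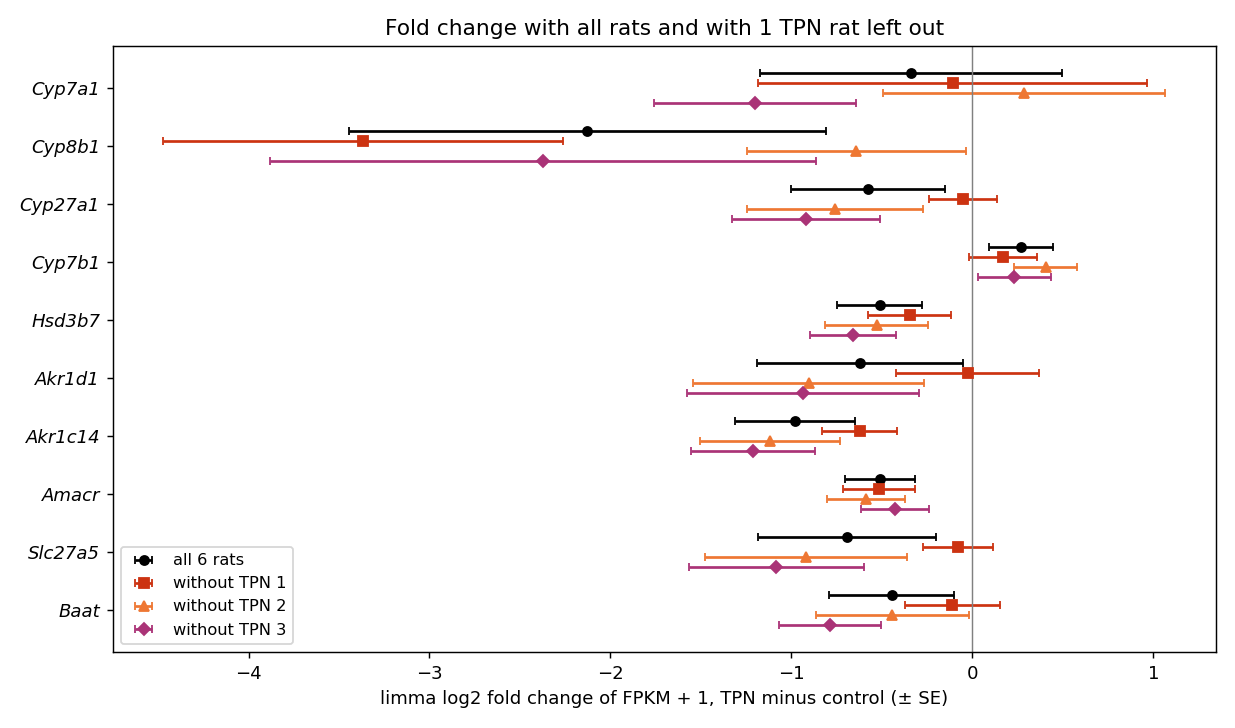
The limma log2 fold change of FPKM + 1, TPN minus control, with its SE (horizontal axis) for each enzyme with all 6 rats and with TPN 1, TPN 2 or TPN 3 left out. For Cyp27a1, Akr1d1, Slc27a5 and Baat the value without TPN 1 lies between -0.11 and -0.026, while Akr1c14 and Amacr lie at -0.62 and -0.52.

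Ratios between members within a rat do not change with the scaling of the library. The ratio of Cyp8b1 to Cyp7a1, which sets the hydroxylase of cholic acid against the first enzyme, was 6.45, 2.20 and 1.65 in control 1, 2 and 3 and 6.51, 0.175 and 0.339 in TPN 1, 2 and 3. TPN 2 and TPN 3 were below every control, and TPN 1 was close to control 1. The ratio of Cyp27a1 to Cyp7a1, alternative against classic entry, was 7.50, 1.87 and 2.96 in the controls and 1.96, 9.51 and 1.41 in the TPN rats. The ratio of Cyp7b1 to Cyp7a1 was 0.0713, 0.0286 and 0.0328 in the controls and 0.12, 0.13 and 0.0225 in the TPN rats. The ratio of Baat to Slc27a5, the conjugation pair, was 1.84, 1.56 and 1.78 in the controls and 3.03, 1.49 and 1.91 in the TPN rats. All 4 ratios overlapped between the groups, and no test was made of them.

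Some members followed each other closely over the 6 rats. Likeness was measured as the mean absolute difference of log2(FPKM + 1), each gene centred on its own mean, over 6 rats. By this measure Cyp27a1 and Slc27a5 were each other's closest member, at 0.0798. Hsd3b7 and Baat were also each other's closest, at 0.169. Akr1d1 was closest to Cyp27a1, at 0.315, and Akr1c14 to Hsd3b7, at 0.237. Amacr was closest to Hsd3b7 at 0.308 and Cyp7b1 to Amacr at 0.402. Cyp7a1 and Cyp8b1 had no close member, since their nearest, Baat and Amacr, lay at 0.813 and 1.36. These distances describe 6 rats that share 2 groups and carry no test.

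Other genes of the pathway were given by a list of 15 names, of which 12 had a row and 9 a mean of at least 1 FPKM. None of the 9 passed the adjusted threshold, against 0.246% of all features. None reached an unadjusted p under 0.05 by limma, against 11.4%, and none was lower without overlap, against 9.09%. Negative log2 fold changes numbered 6 of 9, against 49.1% of all features, and the median of the 9 was -0.095. Scp2, the sterol carrier thiolase, measured 407 ± 31.6 FPKM in control and 349 ± 43.3 FPKM in TPN (SD, n = 3). Acox2, the branched-chain acyl-CoA oxidase, measured 145 ± 22.1 FPKM in control and 129.5 ± 14.9 FPKM in TPN. Hsd17b4, the multifunctional enzyme that follows it, measured 179 ± 5.84 FPKM in control and 185 ± 43.4 FPKM in TPN. Cyp39a1, an oxysterol hydroxylase, was low in TPN 1, at 17.6 FPKM against 42.7 and 49.8 in the other TPN rats and 39.7 to 52.4 in controls. Star, the mitochondrial cholesterol carrier, was the gene of the list without overlap, and it was too low to be tested. It was listed at 0, 0.15 and 0 FPKM in the controls and at 0.30, 0.34 and 0.28 FPKM in TPN rats. That is 1 of 12 rows, where 6.08% of the 20562 features with a mean above 0 were higher without overlap. Cyp46a1 and Ch25h were under 1 FPKM in all 6 rats.

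Of 18 regulators of the pathway with a row none passed the adjusted threshold, against 0.246% of all features. Negative log2 fold changes numbered 15 of 18, against 49.1% of all features, and the median of the 18 was -0.19. Nr1d1 was lower and Ppargc1a higher without overlap, and no other regulator was apart. That is 1 of 18 in each direction, against 9.09% of all features lower and 8.02% higher. Nr1d1, the clock repressor REV-ERB alpha, measured 19.3, 21.0 and 33.6 FPKM in controls and 4.63, 7.72 and 12.2 FPKM in TPN rats (log2 fold change -1.52, SE 0.34 and limma adjusted p = 0.173). Ppargc1a, the coactivator PGC-1 alpha, measured 1.96, 1.92 and 1.35 FPKM in controls and 2.12, 4.16 and 2.79 FPKM in TPN rats (log2 fold change 0.53, SE 0.21 and limma adjusted p = 0.399). Nr1h4, the bile acid receptor FXR, measured 26.2 ± 4.60 FPKM in control and 21.1 ± 3.56 FPKM in TPN (limma adjusted p = 0.622). Nr0b2, the repressor SHP that FXR induces, measured 15.6, 21.8 and 21.6 FPKM in controls and 13.5, 23.4 and 12.7 FPKM in TPN rats, with TPN 2 the highest rat. Nr5a2, an activator of Cyp7a1 and Cyp8b1, ran from 8.43 to 14.3 FPKM in controls and from 7.41 to 13.3 FPKM in TPN rats (limma adjusted p = 0.935). Hnf4a, another activator, ran from 86.7 to 112 FPKM in controls and from 76.3 to 140.1 FPKM in TPN rats (limma adjusted p = 0.935). Fgfr4, the receptor of the gut hormone that represses Cyp7a1, measured 11.5 ± 1.72 FPKM in control and 10.8 ± 1.53 FPKM in TPN (limma adjusted p = 0.892).

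Summed over the 10 enzymes, FPKM was 2869, 2425 and 3371 in control 1, 2 and 3 and 1109, 2129 and 2611 in TPN 1, 2 and 3. TPN 1 was lowest and TPN 3 lay within the control range. Akr1d1, Akr1c14 and Baat were the largest rows, at 910, 665 and 492 FPKM of the summed control mean of 2889. Cyp7a1 and Cyp7b1 entered that mean with 38.8 and 1.40 FPKM, so the sum says little about them. The acute-phase list, genes such as Lcn2, Orm1 and Hp that inflammation induces, had its highest sum in TPN 1, at 107301 FPKM, against 50349 and 41324 in TPN 2 and 3. In the controls it was 22641, 58516 and 23021 FPKM, so control 2 exceeded TPN 2 and TPN 3. Crp and Hamp were the 2 of the 15 acute-phase rows with a negative log2 fold change, where 49.1% of all features had one. For Crp it was -0.42 (SE 0.48 and limma adjusted p = 0.802), and for Hamp -2.81 (SE 1.89 and limma adjusted p = 0.630). Hamp measured 461, 711 and 414 FPKM in the controls and 333, 2.01 and 392 FPKM in TPN 1, 2 and 3, so the size of its change came mainly from TPN 2. Control 2 was the lowest control for Cyp27a1, Hsd3b7, Akr1d1, Akr1c14, Slc27a5 and Baat, and the highest for Cyp7a1, Cyp8b1, Cyp7b1 and Amacr. The clock list summed to 79.3, 72.0 and 179.6 FPKM in the controls and 38.3, 66.4 and 115 FPKM in the TPN rats. Dbp, an activator of Cyp7a1 with a daily rhythm, measured 6.50, 6.46 and 69.0 FPKM in the controls and 1.69, 4.05 and 27.5 FPKM in the TPN rats. The part of the acute-phase and clock genes in the values of the enzymes was not tested.

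**Figure D4:**
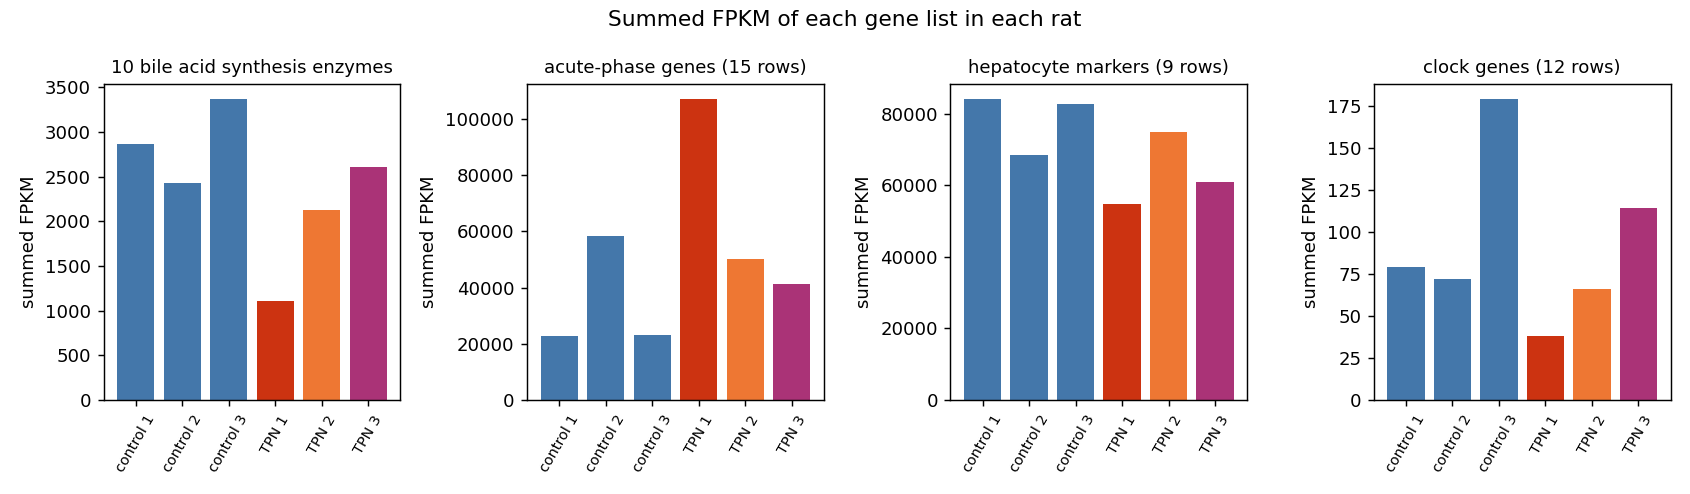
Summed FPKM (vertical axes, linear from 0) of the 10 enzymes, 15 acute-phase rows, 9 hepatocyte marker rows and 12 clock rows in each of the 6 rats, 1 bar a rat. TPN 1 has the lowest sum of the enzymes, of the hepatocyte markers and of the clock genes and the highest sum of the acute-phase genes.

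The hepatocyte sum was 84258, 68386 and 82777 FPKM in control 1, 2 and 3 and 54751, 74998 and 61017 FPKM in TPN 1, 2 and 3, and TPN 1, 2 and 3 stood at 69.8%, 95.6% and 77.8% of its control mean. The sum of the 10 enzymes stood at 38.4%, 73.7% and 90.4% of its control mean in the same rats. One of the 9 hepatocyte rows, Fgb, is also an acute-phase gene, and without it the hepatocyte sum stood at 54.2%, 91.5% and 74.3% of its control mean in TPN 1, 2 and 3. Alb was the largest row of that sum, at 42953.5 FPKM of its control mean of 73760.9, and measured 12828 FPKM in TPN 1. Ttr, Cps1 and Cyp2e1 also had their lowest value of the 6 rats in TPN 1, while Apoa1, Apob and Serpina1 had their highest there. Macrophage markers, all 8 with a row, summed to 315 to 480.3 FPKM in controls and 413 to 681 in TPN rats. Cd68, Marco and Cd163 were higher in TPN without overlap, which is 3 of 8 rows against 8.02% of all features. Adgre1, Csf1r, Cd5l and Vsig4 had a higher mean in TPN rats with overlap, and Clec4f had a lower one. Stellate cell markers, all 8 with a row, summed to 115 to 182 FPKM in controls and 81.0 to 110.2 in TPN rats. Col3a1 was the largest row of that sum, at 109 FPKM of its control mean of 152 and 64.0 of its TPN mean of 92.1. Lrat, Col1a1, Pdgfrb, Acta2 and Reln also had a lower mean in TPN rats, while Rgs5 and Des did not. Endothelial markers, 6 rows, summed to 90.6 to 139 FPKM in controls and 113 to 139.5 in TPN rats. Cholangiocyte markers, 8 rows of which 4 were under 1 FPKM in all rats, summed to 15.4 to 23.7 FPKM in controls and 11.3 to 15.1 in TPN rats. Erythroid genes, 6 rows, summed to 2125 to 2420.1 FPKM in controls and 230.5 to 578 in TPN rats. Intestinal genes summed to at most 6.33 FPKM over 6 rows, with Cdx1 listed at 0 in all rats. The part of other cell types in the values of the enzymes was not tested.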

How the data were processed

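Liver samples were assigned to 3 control and 3 TPN rats from their titles. The authors deposited 1 table of FPKM, and its columns were matched to rats by name. Per the submitters' processing notes, Bowtie 0.12.2, Cufflinks and build Rnor_6.0 were used, with no roles named. FPKM holds no counts. Among low values at most 0.943% of ratios between rats fell in the fullest bin, so whole reads could not be recovered and depth is unknown. The 11362 features whose mean reached 1 FPKM were taken as log2(FPKM + 1) into limma 3.58.1 (R 4.3.3), with trend and robust moderation, no covariate, and Benjamini-Hochberg correction of 2-sided p over all of them. This scale understates changes of low genes. Where a change is called fold, it is a ratio of group means of FPKM. All 10 members were tested. The fit was tested on simulated data. The titles number the samples within each group, and each sample was taken as a separate rat.

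The members, the other lists and the alternatives were chosen with earlier results of these data known. Genes named by value were the 10 members, pathway and regulator genes whose groups did not overlap, Nr0b2, Nr1h4, Nr5a2, Hnf4a and Fgfr4. Scp2, Acox2, Hsd17b4, Cyp39a1, Cyp46a1, Ch25h, Dbp and Cdx1 were chosen after their values were seen. So were Crp, Hamp and the hepatocyte, macrophage and stellate rows named singly. Alternatives changed the pseudocount to 0.1, dropped the filter or raised it to 5 FPKM, scaled by median ratio, quantiles or TPM, dropped trend and robust moderation, weighted the samples, took the replicate number as a block, summed rows of a symbol, added a pseudocount to the ratios, or left out each rat. Promoters of 300 bases came from RefSeq on GRCr8, matched by symbol for 7 of 10 members. Figures were drawn with matplotlib 3.10.9.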

Additional observations from a re-analysis of the deposited data

How the results depend on the processing

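No member passed limma's adjusted threshold under any of the alternatives run, and 157 of 159 values of single members kept their direction and their side of it. The exceptions were Cyp7a1 without control 2 (0.044) and without TPN 2 (0.29). Its values ran from -1.20 to 0.29 when a rat was left out. Members lower without overlap were 4 after median-ratio scaling (Hsd3b7, Akr1c14, Amacr and Slc27a5, against 9.96% of all features), and 2 to 6 when a rat was left out (against 9.96% to 19.8% of all features), where 2 is the least possible because the groups of Akr1c14 and Amacr do not overlap with all rats in. Members at an unadjusted p under 0.05 by limma were 5 with sample weights (against 22.6% of all features) and 3 after median-ratio scaling (against 13.7%). They were 1 to 3 when a rat was left out (against 5.45% to 13.1% of all features). Amacr was not among them after quantile normalisation, with the replicate block, or without control 2, control 3 or TPN 3. Akr1c14 was not among them without control 1. The median of the members ran from -0.93 to -0.11 when a rat was left out. Features past the adjusted threshold, 28 in the fit reported, were 18 with a pseudocount of 0.1, 6 with a mean of at least 5 FPKM, 8 without trend and robust moderation, 299 with sample weights, and 0 to 46 when a rat was left out. They were 0 without a filter, after median-ratio scaling and after quantile normalisation by limma, where limma put 1898, 1556 and 1591 features under an unadjusted p of 0.05. The cause of these moves was not tested. The difference in the log2 ratio of Cyp8b1 to Cyp7a1, -1.97, ran from -3.55 to -0.94 when a rat was left out. For Cyp7b1 to Cyp7a1 it was 0.80 and ran from 0.36 to 1.62. The other ratios changed sign, with Cyp27a1 to Cyp7a1, at -0.22, running from -1.06 to 0.34. Baat to Slc27a5, at 0.25, ran from -0.030 to 0.48. The replicate block gave 1 member at an unadjusted p under 0.05, Akr1c14 (against 11% of all features), and 58 features past the adjusted threshold. Rats with the same number deviated from their group means with correlations of -0.21, -0.14 and 0.32 across features. The highest value of any control with any TPN rat was 0.42, for control 2 with TPN 1. With 3 rats a group these values cannot decide whether rats of the same number shared a batch or an hour. Depth is unknown, so how far counting error limits low genes such as Cyp7b1 cannot be given.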
